A study of Homo sapiens with 30 samples.

Results

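Progestin-treated and untreated T47D cells kept under the topoisomerase inhibitor that the labels call ICRF were compared by RNA sequencing. The members were picked by title alone, as the 2 untreated and 2 progestin libraries labelled ICRF, which are 4 of the 30 samples in the series. The other samples are 8 RNA-seq libraries of cells given a control siRNA (siControl) or an siRNA against CEBPA, and 18 chromatin samples. T47D, an established breast cancer cell line of luminal type that makes much progesterone receptor, was used at passages 18 to 20. All groups were starved alike, with 48 h in charcoal-treated serum followed by 24 h without serum. The ICRF progestin group was then given R5020, a synthetic progestin, at 10 nM, and the ICRF untreated group was given no hormone. Neither the dose of ICRF nor the time under hormone is given for these 4 libraries. Of the siRNA groups only siControl is used below, as untreated cells (time label 0) and cells given 10 nM R5020 (time label 360), both after a 4 h arrest that the ICRF labels do not mention. All 4 ICRF libraries hold the inhibitor, so its own effect on cells without hormone is not part of this comparison.

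The progesterone receptor is a transcription factor that sits with heat shock chaperones until a progestin binds it. The bound receptor dimerises, attaches to palindromic elements in DNA and recruits coregulators, and part of it signals through kinases outside the nucleus. Type II topoisomerases pass a DNA duplex through a transient break in another, which removes supercoils and tangles made by transcription and replication. TOP2A is the form of dividing cells and TOP2B the form found in nearly all cells. Compounds of the ICRF series are known as catalytic inhibitors that hold the enzyme closed on DNA. In T47D cells a progestin is known for starting a limited round of proliferation followed by arrest and for shifting the cells towards differentiation and lipid metabolism.

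The 4 libraries held between 103156070 and 108066269 fragments assigned to genes, against 57364785 to 148624099 in the 8 siRNA libraries. Levels are given as CPM, counts per 1000000 of those fragments after TMM scaling, which is not corrected for gene length, so levels are compared within a gene. Replicate libraries of a group were nearly alike, with Pearson correlations across genes of 0.9993 and 0.9992. The library names in the file headers differ between ICRF replicates in their last number and between siRNA replicates in the number before it, and nothing in the sources used here says whether ICRF replicates are separate cultures. The p-values therefore rest on library-to-library spread alone, and that spread may be technical only. The libraries carried the luminal markers of the labelled line. All 12 luminal markers were measured, with a summed level of 12100 and 12130 CPM in the untreated and 5959 and 5701 CPM in the progestin libraries. The 6 basal markers summed to 37.2 and 38.8 CPM untreated and 31.9 and 27.5 CPM with progestin, most of it from ACTA2. The 14 markers of fibroblasts, endothelium and blood summed to 29.4 and 32.8 and 33 and 29.8 CPM, nearly all of it COL1A1; 12 of them stayed under 1 CPM in every library and CD3E was at 0. Those sums overlapped between the groups for the markers of other cells and not for the luminal or basal ones. In bulk RNA, fewer cells of a type and less RNA per cell cannot be told apart.

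Most measured genes differed in level between the progestin and the untreated libraries under ICRF. Of 18556 genes with enough counts to test, 5813 rose and 5572 fell at an adjusted p under 0.05 in edgeR's quasi-likelihood test, so that 61.4% of all genes tested were called, 31.3% higher and 30% lower. At this depth small shifts pass the test, and 6264 of the called genes changed by less than 1.5-fold. A change of at least 2-fold was found for 2587 genes, 13.9% of those tested, of which 1345 were higher (7.25%) and 1242 lower (6.69%). A separate fit limited to genes with at least 1 CPM in 2 libraries gave 1411 such changes. The median log2 change over all genes tested was -0.011. In 79% of genes tested the 2 untreated and the 2 progestin libraries did not overlap. Below, a gene "rose" or "fell" only if it passed this test, a change is a log2 ratio of progestin over untreated with its standard error (SE), and gene lists are given by their counts and median. The lists share some genes with one another. Their counts are to be read beside the 31.3% higher and 30% lower of all genes tested.

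**Figure D1:**
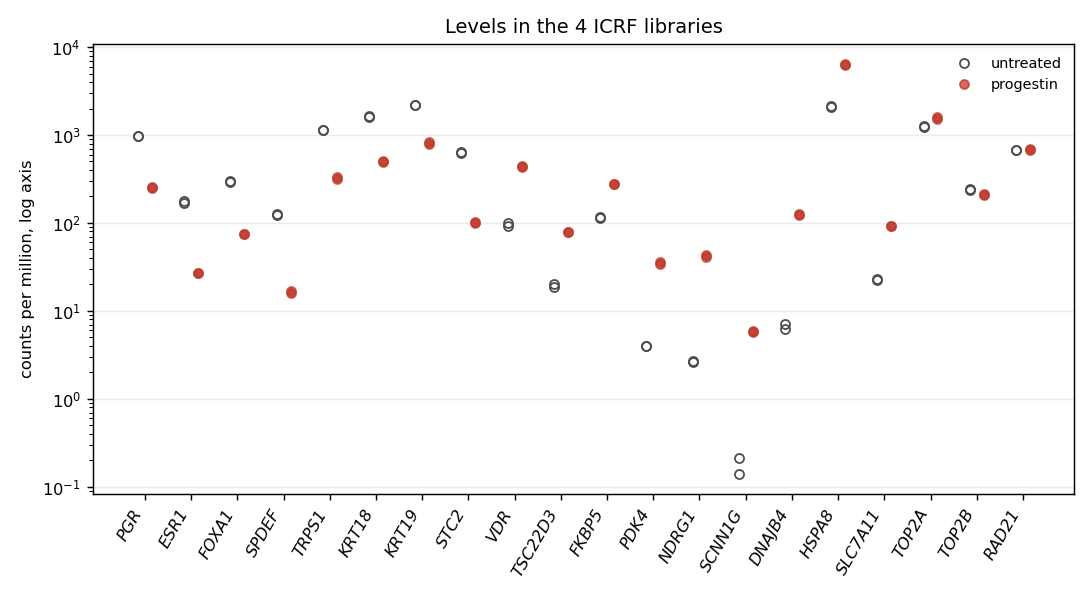
Level of 20 genes in each of the 4 ICRF libraries, in CPM on a log axis, with open circles for the 2 untreated and filled circles for the 2 progestin libraries. The 2 libraries of a group nearly coincide; PGR and ESR1 sit lower with progestin (177 and 167 against 26.9 and 27.3 CPM for ESR1), HSPA8 and SCNN1G higher, and RAD21 at the same height.

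The receptor for the hormone and that for oestrogen both fell. The annotated gene PGR spans chr11:101029624-101130524 (hg38, minus strand, ENSG00000082175.14). PGR encodes the progesterone receptor and stood at 972 and 975 CPM in the untreated and 251 and 258 CPM in the progestin libraries (log2 change -1.94 ± 0.033, adjusted p = 4.72e-39). The annotated gene ESR1 spans chr6:151656691-152129619 (hg38, plus strand, ENSG00000091831.21). ESR1, the oestrogen receptor alpha gene, went from 177 and 167 to 26.9 and 27.3 CPM, a log2 change of -2.66 ± 0.043 (adjusted p = 4.51e-40). For both genes the untreated libraries were high and the progestin libraries low with no overlap. VDR, the vitamin D receptor gene, moved the other way, from 92.3 and 99.3 to 446 and 433 CPM (2.20 ± 0.037, adjusted p = 3.29e-38). Over the 27 measured steroid receptor genes and their nuclear receptor relatives, 9 rose and 14 fell, with a median log2 change of -0.29. RARA, the retinoic acid receptor alpha gene, fell by 1.33 ± 0.06. NR3C2, the mineralocorticoid receptor gene, had 4.42 and 4.86 CPM untreated and 5.15 and 5.15 CPM with progestin and did not pass the test. Among receptor coregulators and chaperones, 16 of 24 fell and 5 rose (median -0.26). The ATPase gene SMARCA4 (-0.60 ± 0.037), NRIP1 (-0.58 ± 0.043) and NCOA2 (-0.53 ± 0.042) were among the falls, while CITED2, a CBP/p300-binding coregulator, rose by 0.85 ± 0.044. HSP90AA1 and HSP90AB1, the chaperones that hold the unbound receptor, had log2 changes of 0.045 ± 0.034 and 0.062 ± 0.032 and did not pass. Without progestin library 1 both passed as higher (0.0842 and 0.0588), as HSP90AB1 did without progestin library 2 (0.0709) and without scaling factors (0.0643).

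Classical targets of progestins and glucocorticoids mostly rose. Of 38 measured members of that list 23 rose and 11 fell, with a median log2 change of 0.85 against -0.011 over all genes. TSC22D3, the glucocorticoid-induced leucine zipper gene GILZ, was measured at 20 and 18.8 CPM untreated and 79.7 and 79 CPM with progestin (2.03 ± 0.05, adjusted p = 2.19e-33). FKBP5, which encodes a cochaperone that lowers receptor affinity for hormone, was at 118 and 114 and 278 and 279.6 CPM (1.27 ± 0.035, adjusted p = 2.32e-31). PDK4, a kinase that turns off pyruvate dehydrogenase, went from 4.03 and 3.98 to 34.2 and 35.6 CPM (3.12 ± 0.072). In all 3 genes both progestin libraries were above both untreated ones. Further rises were found for the small GTPase gene RHOB (2.02 ± 0.037), the sodium pump subunit ATP1B1 (1.90 ± 0.037), KLF9 (1.52 ± 0.078), the growth factor TGFA (1.51 ± 0.053), the clock gene PER1 (1.48 ± 0.083) and F3, tissue factor (2.04 ± 0.12). ELF5, a regulator of milk-producing alveolar cells, and IGFBP5 are on the same list and fell, by 1.39 ± 0.049 and 1.23 ± 0.033. ZBTB16, a classical glucocorticoid target encoding PLZF, was almost silent, with 0 and 3 fragments untreated and 34 and 28 with progestin, a ratio of 20.5 with a 95% exact counting interval from 6.69 to 102. The C/EBP and Tribbles list had 3 rises and 2 falls among 9. CEBPA, the gene whose protein the wider series maps on chromatin, was at 38.5 and 38.9 CPM untreated and 89.9 and 87.5 CPM with progestin (1.20 ± 0.044, adjusted p = 7.89e-27). CEBPD (1.06 ± 0.097) and CEBPG (0.68 ± 0.039) also rose, TRIB3 and DDIT3 fell by 0.71 ± 0.043 and 0.36 ± 0.051, and CEBPB (0.15 ± 0.073) did not pass, although it passed as higher without untreated library 1 (0.234) or progestin library 2 (0.212).

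The base sequence before some of these genes' starts is shown because the receptor is known to bind a palindrome, and because the heat shock genes described below share a factor with a known element. RefSeq windows (GRCh38.p14) were matched by symbol for 12430 of 18288 tested genes and the 250 bases before each start were searched on both strands. The core of the receptor's palindrome was searched as ACANNNTGT, and capitals mark its match in ESR1, KLF5, IRS2 and HERC5. ESR1 is at chr6:151656422-151656671 on the plus strand, KLF5 at chr13:73054726-73054975 on the plus strand, IRS2 at chr13:109786584-109786833 on the minus strand and HERC5 at chr4:88456869-88457116 on the plus strand. For HSPA1B, at chr6:31827488-31827734 on the plus strand, capitals mark the heat shock element core GAANNTTC. Bases inside the gene models of the deposited files were left out.
ESR1: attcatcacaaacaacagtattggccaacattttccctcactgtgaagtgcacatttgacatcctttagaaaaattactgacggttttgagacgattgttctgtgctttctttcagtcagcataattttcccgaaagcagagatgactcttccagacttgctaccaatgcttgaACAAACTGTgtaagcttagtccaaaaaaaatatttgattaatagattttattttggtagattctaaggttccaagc
KLF5: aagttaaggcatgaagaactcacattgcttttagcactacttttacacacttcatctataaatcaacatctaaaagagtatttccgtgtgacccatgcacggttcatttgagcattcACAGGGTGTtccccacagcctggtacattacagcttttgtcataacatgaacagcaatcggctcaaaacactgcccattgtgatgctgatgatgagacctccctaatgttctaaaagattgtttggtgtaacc
IRS2: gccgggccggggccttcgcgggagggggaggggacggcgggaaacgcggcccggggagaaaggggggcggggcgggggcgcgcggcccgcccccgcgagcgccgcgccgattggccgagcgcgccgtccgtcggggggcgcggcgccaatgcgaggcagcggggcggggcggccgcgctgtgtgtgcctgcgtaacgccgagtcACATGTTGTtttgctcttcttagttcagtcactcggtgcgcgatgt
HERC5: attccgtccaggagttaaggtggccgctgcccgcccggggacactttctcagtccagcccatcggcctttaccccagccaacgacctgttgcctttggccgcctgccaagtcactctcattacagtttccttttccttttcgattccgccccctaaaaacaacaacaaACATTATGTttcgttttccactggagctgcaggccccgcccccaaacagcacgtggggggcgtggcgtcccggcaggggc
HSPA1B: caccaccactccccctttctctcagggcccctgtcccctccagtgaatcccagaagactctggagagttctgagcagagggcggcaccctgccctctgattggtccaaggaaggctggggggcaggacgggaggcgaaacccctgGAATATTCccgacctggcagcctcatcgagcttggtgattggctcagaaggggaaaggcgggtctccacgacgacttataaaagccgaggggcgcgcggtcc
ESR1 fell, whereas KLF5 (1.03 ± 0.078), IRS2 (1.20 ± 0.083) and HERC5 (2.48 ± 0.13) rose, so the same letters stand before genes that moved in opposite directions. The receptor core occurred before 3.16% of genes higher by at least 2-fold and 4.6% of genes lower by at least 2-fold. It occurred before 2.5% of all tested genes with a window, 2.95% of genes that did not pass and 4.68% of all windows in the reference. A shorter receptor motif, AGAACA, occurred before 7.85% of genes higher and 8.06% of genes lower by at least 2-fold, against 7.64% of all tested genes. The heat shock element core, a motif added after the values were seen, occurred before 36.8% of the heat shock list and 4.31% of all tested genes. Before genes higher by at least 2-fold its share was 4.22%. A match is a description of letters, and binding at these windows was not examined.

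The largest relative rises among genes with at least 5 CPM in a group included a sodium channel subunit and genes that were scarce without hormone. The annotated gene SCNN1G spans chr16:23182715-23216883 (hg38, plus strand, ENSG00000166828.2). SCNN1G, the gamma subunit of the epithelial sodium channel, was at 0.214 and 0.141 CPM untreated and 5.75 and 5.97 CPM with progestin (5.04 ± 0.2, adjusted p = 7.78e-26). FAXDC2, a member of the fatty acid hydroxylase family, was at 0.126 and 0.235 and 4.88 and 5.25 CPM (4.79 ± 0.21), and the zinc finger gene ZBTB7C at 0.37 and 0.329 and 8.91 and 8.72 CPM (4.65 ± 0.15). These 3 genes were under 1 CPM in both untreated libraries and far above it in both progestin libraries. The annotated gene DNAJB4 spans chr1:77979175-78017964 (hg38, plus strand, ENSG00000162616.8). DNAJB4, which encodes a J-domain cochaperone of HSP70, was better measured, at 7.07 and 6.26 and 124 and 128 CPM (4.24 ± 0.055, adjusted p = 6.9e-43). NDRG1, a stress and differentiation gene, went from 2.67 and 2.61 to 42.7 and 41.2 CPM (3.99 ± 0.075). Others among the 15 largest rises at that level were ADGRA2, ABTB3, SYNM, GABRQ, LOX, FZD9, SYBU, PDK4 and RHOU, with log2 changes from 3.12 ± 0.12 to 4.20 ± 0.13. SYBU, a syntaphilin-like vesicle transport protein, stood at 4.42 and 4.47 CPM untreated and 39.7 and 38.9 CPM with progestin. In the list of sodium transport and SGK kinase genes, 8 of 20 rose and 8 fell. HSD11B2, the enzyme that inactivates cortisol, was at 2.78 and 3.01 and 7.71 and 6.94 CPM (1.34 ± 0.11). SGK1, the kinase that keeps sodium channels at the membrane, rose by 0.96 ± 0.14, and WNK4 by 0.88 ± 0.1. The Kruppel-like and SP factor list had 5 rises, each of at least 2-fold, and 6 falls among 16: KLF15 (2.15 ± 0.17), KLF9, KLF13 (1.23 ± 0.056), KLF5 and KLF4 (1.01 ± 0.053) rose, and KLF8 fell by 0.85 ± 0.058.

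The largest relative falls among genes with at least 5 CPM in a group included an RNA-binding protein, a signalling exchange factor and several transcription factors. LIN28A, an RNA-binding protein that blocks let-7 maturation, was at 41.9 and 40.9 CPM untreated and 2.66 and 2.32 CPM with progestin (-4.05 ± 0.077, adjusted p = 1.65e-37). VAV3, an exchange factor for small GTPases, went from 178 and 181 to 13.5 and 14.5 CPM (-3.68 ± 0.046, adjusted p = 9.96e-44). Both genes were low in both progestin libraries. TNS4, a focal adhesion protein, was at 32.9 and 33.8 and 3.63 and 3.21 CPM (-3.29 ± 0.076), and the aryl hydrocarbon receptor target CYP1A1 at 81.4 and 62.3 and 9.26 and 8.04 CPM (-3.05 ± 0.23), with a wider error than LIN28A, VAV3 and TNS4. SRARP, BACH2, NCMAP, TGFB2, AMIGO2, SPDEF, ZNF469, L3MBTL3, GBP1, BMPR1B and ESR1 complete the 15, with log2 changes between -3.43 ± 0.11 and -2.66 ± 0.043. Among nuclear-encoded genes that passed the test and did not overlap between groups, KRT8, KRT19, ACTB, PRLR, KRT18, IGFBP5, ACTG1 and TRPS1 lost the most CPM. ACTB (-0.44 ± 0.04) and ACTG1 (-0.57 ± 0.034) are close paralogs with many pseudogenes, so how fragments were split between them is uncertain. Among the largest gains in level of such genes were those of HSPA8, RCAN1, TFRC, VDR, ARL6IP1, DYNLL1 and H3-3B. RCAN1, a calcineurin inhibitor, stood at 391 and 417 and 838 and 829 CPM (1.05 ± 0.034), and the transferrin receptor TFRC at 2120 and 2094 and 2409 and 2505 CPM (0.22 ± 0.032).

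Luminal lineage genes fell almost throughout. Of 28 measured luminal transcription factor, keratin and adhesion genes, 25 fell and 1 rose, 12 of the falls being at least 2-fold, with a median log2 change of -0.94. The summed level of the 12 luminal markers fell with them, as given above. SPDEF, an ETS factor of secretory epithelium, was at 125 and 124 CPM untreated and 16.6 and 15.9 CPM with progestin (-2.93 ± 0.047, adjusted p = 3.3e-40). FOXA1, the pioneer factor that opens chromatin for steroid receptors, went from 292 and 302 to 74.2 and 75.8 CPM (-1.99 ± 0.036, adjusted p = 4.19e-38). TRPS1, a GATA-like repressor of luminal cells, was at 1138 and 1128 and 319 and 329 CPM (-1.80 ± 0.033). For these 3 regulators, as for ESR1, the lowest untreated library stood at more than 3 times the highest progestin library. Among simple epithelial keratins, KRT18 was at 1605 and 1627 and 505 and 496 CPM (-1.69 ± 0.033) and KRT19 at 2178 and 2220 and 828 and 788 CPM (-1.44 ± 0.033). KRT8, the partner of KRT18, fell less, from 4029 and 4018 to 2511 and 2315 CPM (-0.74 ± 0.035). EHF (-2.09 ± 0.039), ELF5, XBP1 (-0.98 ± 0.033), CLDN3 (-0.97 ± 0.081) and the prolactin receptor PRLR (-0.92 ± 0.033) were lower too. GRHL2, a grainyhead factor that maintains epithelium, stayed at 182 and 182 and 189 and 185 CPM and did not pass. The basal and myoepithelial list had 6 rises and 8 falls among 21, and 3 rises without progestin library 2. KRT5, a basal keratin also known in progestin-treated breast cancer lines, had 1 and 0 fragments untreated and 186 and 186 with progestin, a ratio of 368 with a 95% exact counting interval from 65.7 to 14600. KRT15, another basal keratin, fell from 12.9 and 14.4 to 6.73 and 7.56 CPM (-0.94 ± 0.084), and KRT17 stayed under 1 CPM in every library. The change of KRT17 was -0.79 ± 0.28, which passed the test but not with DESeq2 (-0.785) or without untreated library 2 (-0.703) or progestin library 2 (-0.57). Of desmosome and tight junction genes 13 fell and 6 rose among 24; CLDN1, a claudin, was at 420.2 and 429 and 112 and 107 CPM (-1.96 ± 0.035), TJP3 fell by 1.63 ± 0.047, and PKP1 went from 0.321 and 0.207 to 4.27 and 4.64 CPM (4.08 ± 0.2).

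Most genes known to respond to oestrogen fell in the same libraries. In that list 23 of 32 fell and 6 rose, with a median of -0.57. STC2, a secreted glycoprotein, was at 626 and 634 CPM untreated and 103 and 99.4 CPM with progestin (-2.64 ± 0.035, adjusted p = 4.49e-43). CXCL12, a chemokine, went from 55.4 and 52.5 to 11.6 and 11.8 CPM (-2.20 ± 0.057). Both sat low in both progestin libraries, as did BCL2 (-2.04 ± 0.17), SUSD3 (-1.86 ± 0.083) and MYB (-0.95 ± 0.12). Against the direction of the list, the EGF family ligand AREG was at 9.78 and 9.05 and 19.6 and 20.3 CPM (1.09 ± 0.071), and CCND1, cyclin D1, at 80.5 and 79.9 and 101 and 102 CPM (0.34 ± 0.039). Cathepsin D (CTSD) had 889 and 879 and 864 and 754 CPM (-0.13 ± 0.054, adjusted p = 0.0656) and did not pass, though it passed as lower with the replicate block and under 3 other settings. Without untreated library 1 or 2 or progestin library 1 its change was -0.123, -0.139 and -0.229.

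Several heat shock chaperones and most folding genes of the endoplasmic reticulum rose. The annotated gene HSPA8 spans chr11:123057489-123063230 (hg38, minus strand, ENSG00000109971.13). HSPA8, the constitutive HSP70, was at 2134 and 2063 CPM untreated and 6343 and 6244 CPM with progestin (1.58 ± 0.033, adjusted p = 7.18e-36), the largest gain among the genes that passed and did not overlap between groups. The inducible HSP70 genes HSPA1A and HSPA1B had 22.1 and 20.9 and 17.6 and 17.1 CPM untreated and 154 and 145 and 136 and 125 CPM with progestin. Their log2 changes were 2.79 ± 0.046 and 2.91 ± 0.049, but they are near-identical copies, and the split of fragments between them is uncertain. HSPH1, an HSP70 exchange factor, was at 167 and 160.4 and 389 and 398 CPM (1.27 ± 0.034), and DNAJB1, the main inducible J-domain cochaperone, at 111 and 110.1 and 269.9 and 262 CPM (1.27 ± 0.035). Over the heat shock list 11 of 21 rose, 5 of them at least 2-fold, and 5 fell (median 0.12). CRYAB, a small heat shock protein, stayed at 0.817 and 0.751 and 1.18 and 0.599 CPM and did not pass. The endoplasmic reticulum list had 18 rises and 3 falls among 27. The stress sensor gene ERN1 was at 19.6 and 20.5 and 43.9 and 45.3 CPM (1.15 ± 0.054), MANF at 42.7 and 40.9 and 89 and 88.4 CPM (1.09 ± 0.043), and the oxidase gene ERO1B and the cochaperone gene DNAJB9 rose by 1.04 ± 0.064 and 0.93 ± 0.057. XBP1, on this list too, fell.

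Growth factor signalling genes moved in both directions. The ERK feedback list had 8 falls, 5 of them at least 2-fold, and 5 rises among 23. DUSP4, a nuclear MAP kinase phosphatase, was at 34.8 and 33.9 CPM untreated and 7.64 and 7.08 CPM with progestin (-2.22 ± 0.067). DUSP6, which dephosphorylates ERK in the cytoplasm, went from 9.64 and 10.8 to 2.84 and 3.55 CPM (-1.68 ± 0.1), and SPRY4, a Sprouty inhibitor of receptor signalling, from 3.86 and 3.5 to 0.482 and 0.676 CPM (-2.67 ± 0.18). DUSP5 and SPRED2 fell by 1.46 ± 0.1 and 1.22 ± 0.061, whereas ERRFI1, a feedback inhibitor of the EGF receptor, rose by 0.87 ± 0.046. Of EGF ligands and ERBB receptors 9 rose and 4 fell among 15; the ligands TGFA, EGF (1.16 ± 0.061), AREG and BTC (1.07 ± 0.17) were among the rises, and LRIG3 fell by 1.35 ± 0.044. The immediate early list had 11 rises and 10 falls among 24. FOSB was at 3.9 and 5.47 and 1.54 and 1.68 CPM (-1.54 ± 0.15), FOS at 3.53 and 5.8 and 2.09 and 2.17 CPM (-1.13 ± 0.2) and EGR1 at 2.79 and 2.87 and 1.29 and 1.33 CPM (-1.11 ± 0.16). The mRNA-destabilising protein gene ZFP36 rose by 1.31 ± 0.072, the antiproliferative gene BTG2 by 1.14 ± 0.071 and MYC by 0.67 ± 0.19. In insulin and IGF signalling, 17 of 31 genes rose and 8 fell. The 2 adaptor genes of the insulin receptor went apart, with IRS1 at 42.8 and 45.4 and 12.7 and 12.3 CPM (-1.82 ± 0.059) and IRS2 at 5.98 and 5.78 and 13.3 and 13.7 CPM (1.20 ± 0.083). The forkhead gene FOXO4 was at 4.05 and 3.69 and 17.5 and 18.5 CPM (2.22 ± 0.085), and FOXO1 rose by 1.23 ± 0.086.

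The targets of the inhibitor changed little. TOP2A was at 1261 and 1243 CPM untreated and 1530 and 1601 CPM with progestin (0.32 ± 0.033, adjusted p = 7.83e-12), and TOP2B at 236 and 242 and 206 and 212 CPM (-0.19 ± 0.034, adjusted p = 5.01e-06). Both changes passed the test and were below 1.5-fold. The list of topoisomerases and adduct repair enzymes had 11 rises and 7 falls among 20, with 7 rises without untreated library 1. SPRTN, a protease for DNA-protein crosslinks, was at 49.5 and 49.7 and 100.5 and 102 CPM (1.03 ± 0.042), ZNF451, a SUMO ligase that assists removal of trapped TOP2, at 54 and 53 and 93.3 and 94.7 CPM (0.81 ± 0.042), and the end-resection factor RBBP8 fell by 0.75 ± 0.043. RAD21, the cohesin subunit the wider series maps on chromatin, stood at 683 and 681 and 669 and 696 CPM and did not pass. In the list of cohesin, condensin and CTCF genes 13 of 25 fell and 7 rose, none by 2-fold, with the cohesin regulator PDS5B (-0.97 ± 0.042) and the subunit gene STAG1 (-0.93 ± 0.039) lowest. DNA break repair genes had 28 falls and 12 rises among 47, including falls of the recombination gene RAD51B (-1.30 ± 0.085) and the checkpoint kinase gene CHEK2 (-1.17 ± 0.064) and rises of FANCB (0.98 ± 0.084) and FANCM (0.72 ± 0.054). Of p53 targets 13 rose and 9 fell among 29, with log2 changes from -1.79 to 1.14. Of these, 3 rises and 4 falls were at least 2-fold. The best known of them, CDKN1A, had 109 and 107 CPM untreated and 116 and 109 CPM with progestin (0.053 ± 0.039) and did not pass, as was the case for MDM2 (0.059 ± 0.033) and BAX (0.028 ± 0.064). Without progestin library 2, CDKN1A (0.103) and MDM2 (0.0781) passed as higher. T47D is known to carry a mutated p53, and its part in these values was not tested.

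Most replication genes fell, while the shares of the mitosis list were near those of all genes tested. Of 54 replication and licensing genes 32 fell and 9 rose (median -0.19), whereas of 62 mitosis genes 23 fell and 22 rose (median -0.0094). The mitosis shares were 37.1% lower and 35.5% higher, against 30% and 31.3% of all genes tested. UHRF1, which copies DNA methylation, was at 40.2 and 41.5 and 20.6 and 19.9 CPM (-1.01 ± 0.055), the helicase subunit MCM7 at 168 and 169 and 100.5 and 97.2 CPM (-0.77 ± 0.037) and the ribonucleotide reductase subunit RRM2 at 314 and 312 and 175 and 188 CPM (-0.79 ± 0.035). PCNA, the sliding clamp, stayed at 236 and 231 and 229.9 and 245 CPM. In mitosis the kinase CDK1 rose, from 396 and 394 to 561 and 567 CPM (0.51 ± 0.032), the kinetochore gene CENPF fell, from 703 and 715 to 458 and 521 CPM (-0.53 ± 0.049), and MKI67, the proliferation marker, had 376 and 391 and 302 and 361 CPM (-0.21 ± 0.12, adjusted p = 0.242). MKI67 did not pass in this fit. It passed as lower with no filter on low counts, with the replicate block and with 12 libraries fitted together (-0.212, -0.217 and -0.196). Leaving out 1 of the 4 libraries gave changes from -0.34 to -0.089. No mitosis gene changed by 2-fold. Of G1 cyclins, E2F and retinoblastoma genes 13 fell and 6 rose among 24: the kinase gene CDK6 went from 5.43 and 5.48 to 16.9 and 17.3 CPM (1.65 ± 0.08), and E2F2 and E2F5 fell by 1.19 ± 0.069 and 1.16 ± 0.051. CDK inhibitor and antiproliferative genes had 17 rises and 3 falls among 25. CDKN1C, which encodes p57, was at 0.117 and 0.0939 CPM untreated and 2.44 and 2.51 CPM with progestin (4.54 ± 0.27, adjusted p = 4.4e-19), and MXD1, a MYC antagonist, at 9.28 and 8.03 and 21.7 and 21.6 CPM (1.32 ± 0.073). Most ribosome biogenesis genes fell, 22 of 30 against 4 that rose (median -0.21), with the nucleolar genes WDR43 (-0.73 ± 0.043) and GNL3 (-0.69 ± 0.041) lowest and MYC itself, at 9.08 and 6.11 and 12.4 and 11.7 CPM, higher. Histone genes had 3 rises and 5 falls among 18, and poly(A) selection limits what can be said of them.

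**Figure D2:**
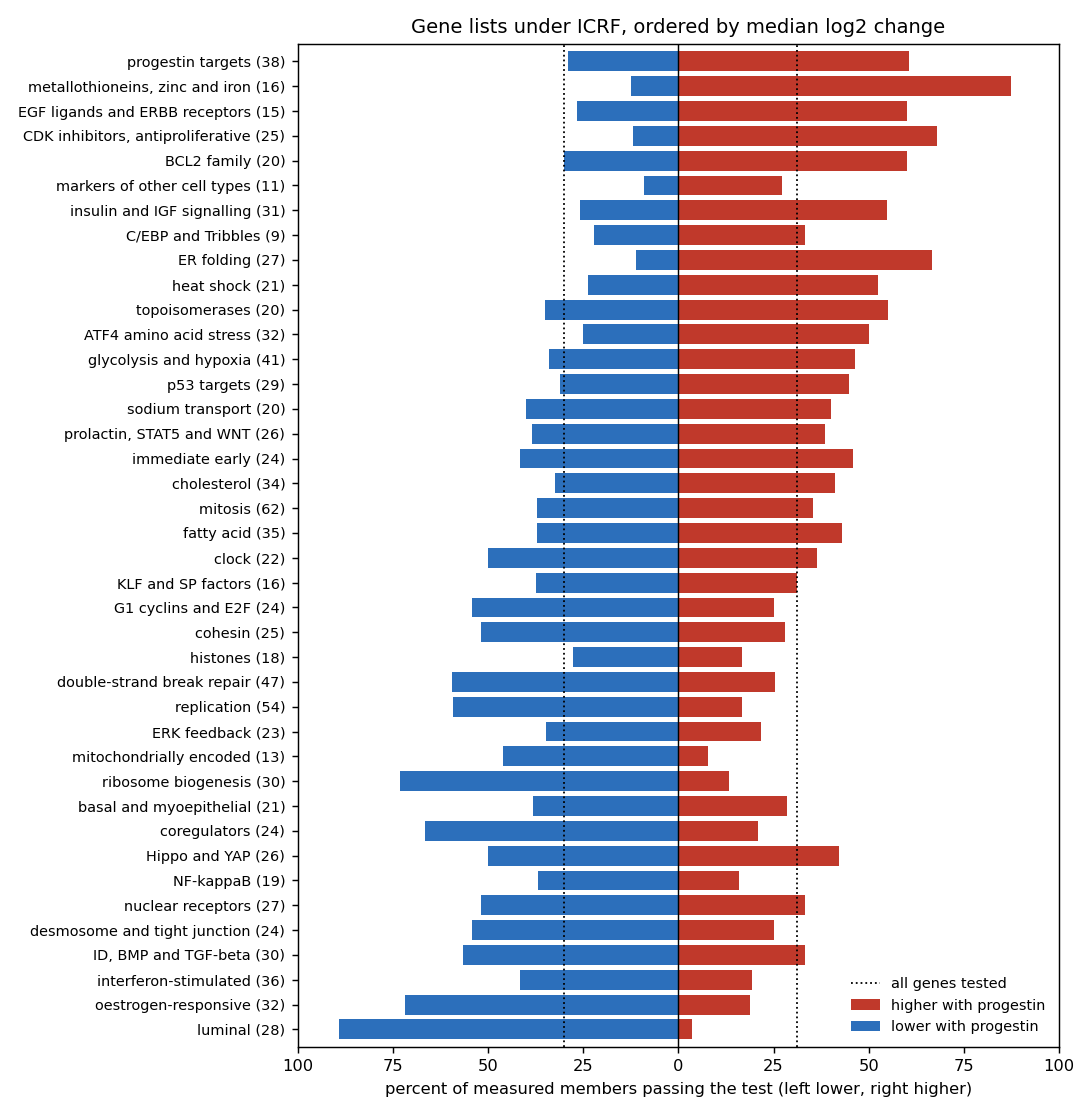
Percent of the measured members of 40 gene lists that rose (right) or fell (left) with progestin under ICRF, with the number measured in parentheses and the lists ordered by median log2 change. Dotted lines mark the 31.3% and 30% of all genes tested; the luminal list reaches 89.3% lower and the list of metallothioneins, zinc and iron genes 87.5% higher.

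Metabolic genes moved in both directions. Amino acid stress genes had 16 rises and 8 falls among 32. SLC7A11, the cystine importer, was at 22.2 and 23.3 CPM untreated and 92.9 and 91.2 CPM with progestin (2.02 ± 0.047, adjusted p = 3.69e-34), asparagine synthetase ASNS at 70.5 and 68.1 and 210.4 and 199.5 CPM (1.56 ± 0.038) and PSAT1, of serine synthesis, at 72.2 and 68.8 and 149 and 142 CPM (1.04 ± 0.04). STC2, TRIB3 and DDIT3 of the same list fell. In the glycolysis, pyruvate dehydrogenase and hypoxia list 19 of 41 rose and 14 fell; PFKFB3, which makes the activator of phosphofructokinase, was at 68.3 and 64.6 and 325 and 326 CPM (2.29 ± 0.037), and the oxygen sensor EGLN3 fell by 1.55 ± 0.047. Cholesterol genes had 14 rises, none of 2-fold, and 11 falls among 34. INSIG1, which retains the sterol sensor in the endoplasmic reticulum, was at 86 and 86.6 and 44 and 44.6 CPM (-0.96 ± 0.043), and the lipogenic regulator SREBF1 at 146 and 145 and 95.5 and 91.3 CPM (-0.64 ± 0.038). Of fatty acid genes 15 rose and 13 fell among 35; the acyltransferase GPAM was at 42.1 and 41.1 and 102 and 99.3 CPM (1.27 ± 0.043), and CPT1A, the gate of mitochondrial fatty acid oxidation, fell by 0.88 ± 0.039. The desaturase SCD was at 1422 and 1378 and 1350 and 1321 CPM (-0.068 ± 0.032) and did not pass, but it passed as lower with upper quartile scaling (-0.137), with at least 1 CPM in 2 libraries (-0.0869) and without progestin library 1 (-0.0837). All 16 measured metallothionein, zinc and iron genes passed the test, 14 higher and 2 lower (median 0.58). MT1X, a metallothionein, was at 1.11 and 1.89 and 8.47 and 7.17 CPM (2.38 ± 0.18), the zinc exporter SLC30A1 at 63.6 and 63.9 and 149 and 154 CPM (1.25 ± 0.039), and the iron exporter SLC40A1 at 309.9 and 301 and 87.5 and 86.2 CPM (-1.81 ± 0.036). Metallothioneins are close paralogs, so their single values are uncertain. Mitochondrially encoded messenger RNAs had 6 falls and 1 rise among 13, and between 10 and 12 falls when any 1 of the 4 libraries was left out but 2 in a fit of all 12 libraries; MT-ND1 was at 939 and 923 and 656 and 578 CPM (-0.59 ± 0.046).

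Secreted signals, cell survival and inflammatory genes changed on either side. Of ID, BMP and TGF-beta genes 17 fell and 10 rose among 30. TGFB2, a TGF-beta ligand, was at 26 and 30.4 CPM untreated and 3.56 and 3.66 CPM with progestin (-2.97 ± 0.082), SMAD6, an inhibitory SMAD, at 13.9 and 14 and 2.49 and 2.29 CPM (-2.54 ± 0.097) and ID3 at 49.9 and 57.3 and 13.7 and 11.8 CPM (-2.07 ± 0.071). JAG1, a Notch ligand, rose instead, from 2.39 and 2.71 to 18.9 and 18.8 CPM (2.88 ± 0.091). The Notch target HES1 had 16.7 and 8.18 and 4.62 and 4.19 CPM, and its change of -1.49 ± 0.53 did not pass (adjusted p = 0.137), though it did with DESeq2. Leaving out 1 of the 4 libraries gave changes of HES1 from -1.92 to -0.895. In the prolactin, STAT5 and WNT list 10 rose and 10 fell among 26; the WNT inhibitor DKK1 was at 2.47 and 2.21 and 0.204 and 0.145 CPM (-3.73 ± 0.25), the WNT receptor FZD1 at 13.8 and 15.1 and 50.4 and 47.9 CPM (1.77 ± 0.058) and AXIN2 rose by 1.76 ± 0.22. Hippo pathway effectors and YAP targets had 11 rises and 13 falls among 26, with WWTR1, the gene of the coactivator TAZ, at 86.6 and 88 and 44.8 and 47.6 CPM (-0.92 ± 0.044). Of the BCL2 family and its partners 12 rose and 6 fell among 20. BCL2L11, which encodes the death activator BIM, was at 12.4 and 10.6 and 37.8 and 36.3 CPM (1.69 ± 0.065), BBC3 (PUMA) and the effector BOK fell by 1.17 ± 0.15 and 1.27 ± 0.066, and PMAIP1 (NOXA) rose by 1.01 ± 0.074. The NF-kappaB list had 7 falls and 3 rises among 19: the inhibitor NFKBIA rose, from 57.7 and 58.3 to 155 and 155 CPM (1.42 ± 0.039), and RELB and ICAM1 fell by 1.93 ± 0.1 and 1.92 ± 0.11. Interferon-stimulated genes had 15 falls and 7 rises among 36, and 24 falls without untreated library 2. GBP1, a guanylate-binding protein, was at 24 and 24.6 and 3.87 and 3.64 CPM (-2.69 ± 0.079), and HERC5, the ligase for ISG15, went the other way, from 1.28 and 1.22 to 6.34 and 7.61 CPM (2.48 ± 0.13). In the clock list 8 rose and 11 fell among 22; PER1 and the repressor CRY2 (1.19 ± 0.048) rose while PER3 fell by 0.64 ± 0.054.

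Genes of 500 kb or more fell more often than genes of any shorter class, in ICRF cells and in siControl cells. Gene span runs from the first to the last annotated base. Of 206 genes of 500 kb or more, 49% fell and 15% rose under ICRF, with a median log2 change of -0.35, and the same class had a median of -0.31 in siControl cells. Genes of 200 to 500 kb differed more between the 2 settings. Under ICRF 41.1% of them fell and 28.8% rose, while in siControl cells 29.4% fell and 37.5% rose. Genes of 50 to 100 kb were called higher most often under ICRF, 43.7% against 27.1% lower. The longest genes were also scarcer than those of 50 to 100 kb, with median levels of 3.77 and 28.9 CPM. Genes under 10 kb were scarcer still, at 0.987 CPM, and 28.7% of them fell under ICRF. The part of level in these shares was not tested. No test was made between classes, since genes are not replicates.

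**Figure D3:**
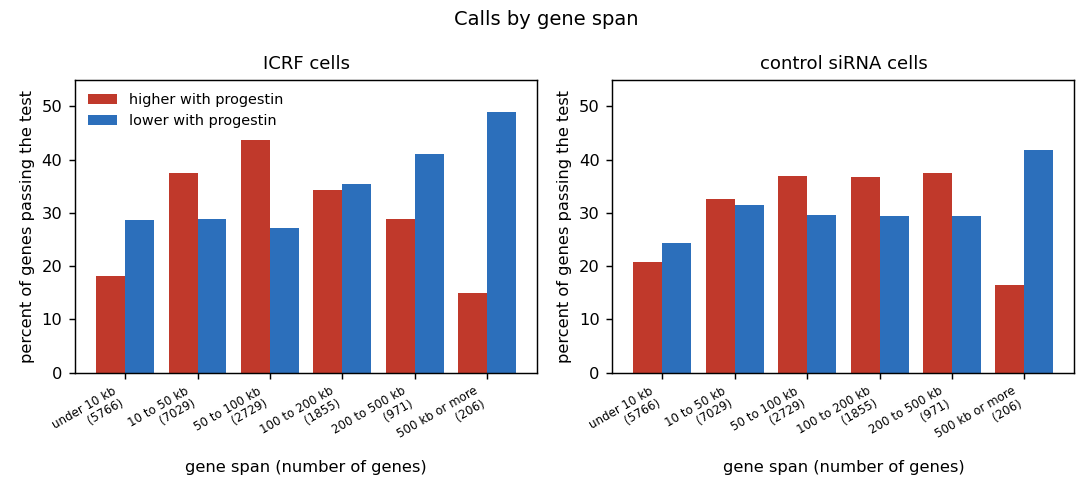
Percent of genes that rose or fell with progestin by gene span, for ICRF cells (left) and siControl cells (right), with the number of genes tested under ICRF in parentheses. Above 100 kb the share that fell grows in ICRF cells, to 49% in the longest class, while in siControl cells it stays near 29.4% up to 500 kb and reaches 41.8% beyond.

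The progestin response of ICRF cells was set against that of siControl cells by the difference of the 2 log2 changes, in a fit of all 12 libraries in which the contrasts share no library. The ICRF and siControl experiments differ in inhibitor, siRNA, arrest and perhaps hormone time and batch, which cannot be told apart. A lower response is a negative difference, ICRF minus siControl, so deeper falls count as lower and weaker falls as higher. Of 19003 genes, 4729 had a higher and 4564 a lower response under ICRF (adjusted p under 0.05, edgeR), 48.9% in all, 24.9% higher and 24% lower. Without scaling factors the same test gave 6225 higher and 3328 lower, 65.2% higher in place of 50.9%, and the median difference of all genes moved from 0.02 to 0.17. Of 18131 genes tested in both, 2933 rose in both and 2650 fell in both, which are 50.9% and 47.8% of the ICRF calls in each direction and 53.6% and 50.8% of the siControl calls. Another 1112 fell under ICRF and rose in siControl cells, and 1095 did the reverse.

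Several receptor targets had a smaller response under ICRF, and for others the difference did not pass. TSC22D3 rose by 2.03 ± 0.05 under ICRF and 4.03 ± 0.05 in siControl cells, a difference of -1.98 ± 0.067 (adjusted p = 3.6e-15). FKBP5 rose by 1.27 ± 0.035 and 2.66 ± 0.041 (difference -1.37 ± 0.054, adjusted p = 3.91e-14), and CEBPA by 1.20 ± 0.044 and 2.00 ± 0.059 (difference -0.79 ± 0.081, adjusted p = 1.05e-07). For PDK4 the difference of -0.24 ± 0.12 did not pass (adjusted p = 0.0971), and it did without siControl untreated library 1 (-0.325) and with 8 libraries fitted together (-0.287). Of other targets named above as rises, F3 (-1.79 ± 0.18) and RHOB (-0.29 ± 0.067) had lower responses. Differences did not pass for PER1 (-0.21 ± 0.12), ATP1B1 (-0.02 ± 0.054), KLF9 (-0.015 ± 0.11) and TGFA (0.047 ± 0.078). Among the progestin and glucocorticoid targets 16 of 38 had a lower response under ICRF and 6 a higher one. These counts go by the sign of the difference, and 11 of the 38 fell under ICRF, so they are not counts of weaker responses. PGR fell by 1.94 ± 0.033 under ICRF and 1.83 ± 0.034 in siControl cells, and the difference did not pass (-0.09 ± 0.047, adjusted p = 0.123), though it did without ICRF progestin library 2 (-0.149) and with 8 libraries fitted together (-0.133). ESR1 fell by 2.66 ± 0.043 under ICRF and 0.58 ± 0.043 in siControl cells (difference -2.07 ± 0.062, adjusted p = 9.01e-16). FOXA1 fell less under ICRF, at -1.99 ± 0.036 and -2.59 ± 0.044 (difference 0.62 ± 0.059), and SPDEF (-2.93 ± 0.047 and -1.08 ± 0.091) and TRPS1 (-1.80 ± 0.033 and -0.41 ± 0.037) fell more. Responses of opposite direction were found for KRT19, which fell by 1.44 ± 0.033 under ICRF and rose by 0.88 ± 0.051 in siControl cells, and for SREBF1, which fell by 0.64 ± 0.038 and rose by 2.00 ± 0.064. The reverse held for SLC7A11 (2.02 ± 0.047 and -0.67 ± 0.07), ASNS (1.56 ± 0.038 and -0.43 ± 0.07), GPAM (1.27 ± 0.043 and -0.56 ± 0.062) and TOP2A (0.32 ± 0.033 and -0.55 ± 0.055). HSPA8 rose by 0.27 ± 0.039 in siControl cells against 1.58 ± 0.033 under ICRF (difference 1.33 ± 0.056, adjusted p = 9.95e-14). In the mitosis list 44 of 62 genes had a higher response under ICRF and 2 a lower one, and siControl cells had 54 falls (median -0.43). In the luminal list 19 of 28 had a lower and 4 a higher response under ICRF (siControl median -0.44).

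**Figure D4:**
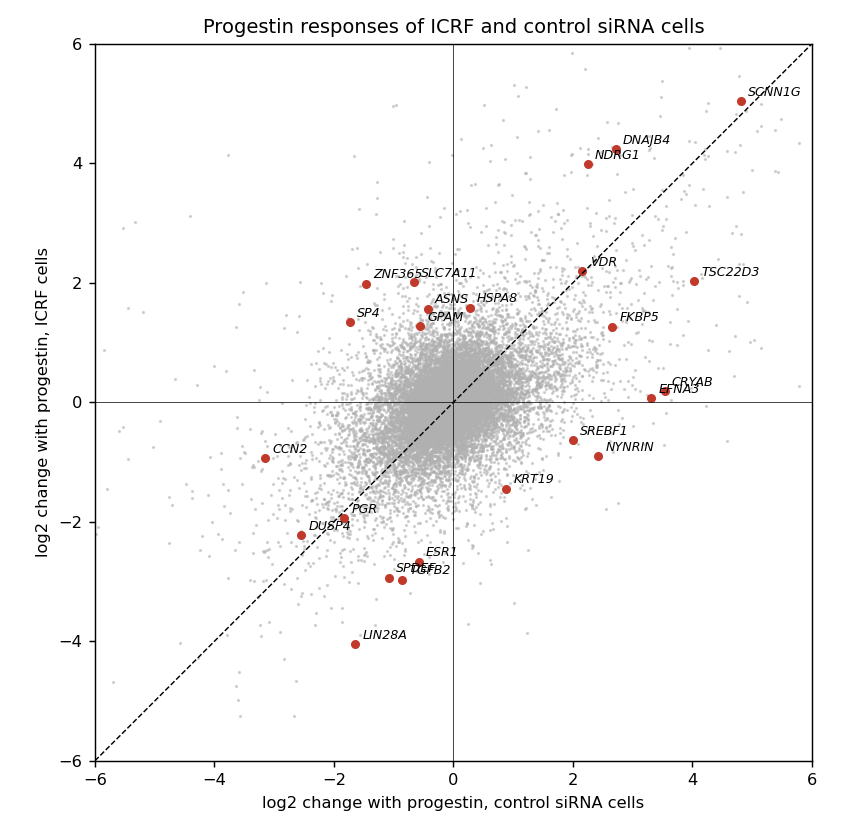
Log2 change with progestin in ICRF cells (vertical) against siControl cells (horizontal) for 18131 genes tested in both, of which 57 lie beyond the axes; the dashed line marks equal changes and named genes are in red. PGR and VDR lie near the line, TSC22D3 and FKBP5 below it among the rises, and ESR1, SPDEF and TGFB2 below it among the falls.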

How the data were processed

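RNA was sequenced as stranded, poly(A)-selected paired-end libraries, per the labels' protocols. The authors deposited 1 table of whole-number fragment counts per gene and library, made with featureCounts 1.5.1 on hg38 with GENCODE 24 and reverse-strand counting, per the file headers, from STAR alignments to a genome with an added MMTV sequence; Trimmomatic and STAR are named in the submitters' processing notes, without versions. No option for multi-mapping fragments stands in the header command, so near-identical genes can lose or share fragments. Symbols came from the reference gene name table (56558 of 60554 genes, holding 99.9% of the ICRF counts).

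The 4 ICRF libraries were fitted alone in edgeR 4.0.16 (R 4.3.3) with filterByExpr, TMM factors and the robust quasi-likelihood test, with Benjamini-Hochberg adjustment over all genes tested and a threshold of 0.05. The fit leaves 2 residual degrees of freedom; its common biological coefficient of variation was 0.0362. SE is the size of the log2 change divided by the square root of the F statistic. The changes in siControl cells and the difference from them came from a fit of 12 libraries with 6 groups. Changes printed under ICRF are those of the fit of 4 libraries, so a printed difference need not equal that of the printed changes. Simulated counts for the ICRF fit held 18193 genes, of which 67, 67 and 66 were changed 1.5-, 2- and 4-fold. The test recovered 92.5%, 100% and 100% of them. For the difference from siControl, with as many changed genes among 18298, recovery was 82.1%, 95.5% and 100%. Far fewer genes were changed in the simulation than the 61.4% called in the data. Its rates were not split by level, so they do not speak for scarce genes. Counting intervals cover counting error only.

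The members were picked by title and not by value, but they and the gene lists were chosen with earlier results of these data known. Genes named were the 15 largest rises and falls with at least 5 CPM in a group and no overlap, the 8 largest gains and losses of CPM, the 8 largest differences from siControl each way, up to 6 called members of each list with at least 1 CPM and up to 2 that did not pass, and 14 genes set by the study's subject. ZBTB16 and a few list members outside this rule were named after their values were seen, as was KRT5, which the rule also picks. Alternatives were 3 other scalings, 2 other filters, DESeq2 1.42.0, a replicate block, joint fits of 12 or 8 libraries and leaving out each library. Same-numbered libraries did not deviate together (correlation 0.0665 over 10375 genes). The chromatin samples and the siCEBPA comparisons were not analysed here, and some genes that the rule picks are not reported here.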

Additional observations from a re-analysis of the deposited data

Results flagged for a closer look

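The response to progestin differed between ICRF and siControl cells for 4729 genes with a higher and 4564 genes with a lower response under ICRF, by the test of the difference itself. The genes below had the 8 largest differences each way among those past the threshold with at least 5 CPM in some group of libraries; each is given as its log2 change under ICRF, that in siControl cells and their difference.

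ZNF365 changed by 1.99 ± 0.096 under ICRF and -1.46 ± 0.14 in siControl cells (difference 3.46 ± 0.18). The SP-family factor SP4 changed by 1.34 ± 0.07 and -1.74 ± 0.1 (difference 3.10 ± 0.12), and PGM2L1, a sugar bisphosphate synthase, by 1.66 ± 0.11 and -1.33 ± 0.18 (difference 3.00 ± 0.2). For ZC3H6 the changes were 1.64 ± 0.084 and -1.32 ± 0.16 (difference 2.97 ± 0.19), and for the poly(A) polymerase gene TENT5C 1.98 ± 0.07 and -0.89 ± 0.068 (difference 2.89 ± 0.095). The cystine importer SLC7A11 had 2.02 ± 0.047 and -0.67 ± 0.07 (difference 2.70 ± 0.098). The kinase gene NUAK2 had -0.51 ± 0.13 and -3.22 ± 0.12 (difference 2.73 ± 0.17), and ULBP1, a ligand of the NKG2D receptor, 0.42 ± 0.086 and -2.23 ± 0.098 (difference 2.66 ± 0.13).

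On the other side, NES, an intermediate filament gene, changed by -0.063 ± 0.19 under ICRF and 4.24 ± 0.15 in siControl cells (difference -4.29 ± 0.21). HPD, of tyrosine breakdown, changed by 0.44 ± 0.42 and 4.69 ± 0.23 (difference -4.23 ± 0.42), and ALPL, tissue-nonspecific alkaline phosphatase, by 0.87 ± 0.27 and 4.62 ± 0.17 (difference -3.73 ± 0.28). NES, HPD and ALPL stayed under 1.5 CPM in the 4 ICRF libraries. The mitochondrial carrier gene SLC25A18 had 1.11 ± 0.15 and 4.71 ± 0.14 (difference -3.58 ± 0.2), and the small heat shock gene CRYAB 0.18 ± 0.26 and 3.54 ± 0.16 (difference -3.34 ± 0.29). NYNRIN had -0.90 ± 0.11 and 2.43 ± 0.1 (difference -3.31 ± 0.15). The potassium channel gene KCNC1 had 1.68 ± 0.15 and 4.92 ± 0.13 (difference -3.22 ± 0.19), and the ephrin gene EFNA3 0.074 ± 0.079 and 3.31 ± 0.063 (difference -3.22 ± 0.089). NES, HPD, CRYAB and EFNA3 did not pass the test under ICRF, where CRYAB too stayed under 1.5 CPM in the 4 libraries.

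Among genes whose difference the report gives, it was negative for ESR1 (-2.07 ± 0.062), SPDEF (-1.84 ± 0.13) and TRPS1 (-1.38 ± 0.053), which fell more under ICRF. TSC22D3 (-1.98 ± 0.067), FKBP5 (-1.37 ± 0.054) and CEBPA (-0.79 ± 0.081) had negative differences and rose less under ICRF. The same held for F3 (-1.79 ± 0.18) and RHOB (-0.29 ± 0.067). SREBF1 (-2.62 ± 0.09) and KRT19 (-2.31 ± 0.073) had negative differences too, falling under ICRF and rising in siControl cells. The difference was positive for ASNS (2.01 ± 0.099), GPAM (1.85 ± 0.084) and TOP2A (0.88 ± 0.077), which rose under ICRF and fell in siControl cells. It was also positive for HSPA8 (1.33 ± 0.056), which rose more under ICRF, and FOXA1 (0.62 ± 0.059), which fell less. The ICRF and siControl cells differ in more than the inhibitor, and what sets these differences was not tested.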

How the results depend on the processing

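Over all alternatives the ICRF counts stayed between 4983 (at least 1 CPM in 2 libraries) and 5894 genes higher and between 4767 (DESeq2) and 6568 genes lower. Every gene called in both the main fit and an alternative had the same sign. The alternatives refit the same ICRF libraries, so a shared sign among genes called in both says little. Leaving out 1 library gave 5238 to 5659 genes higher, 4810 to 5488 lower and 2357 to 2595 changed at least 2-fold; where a group then holds 1 library, it is assumed to vary like the other. The number changed at least 2-fold fell to 1411 with at least 1 CPM in 2 libraries. For the difference from siControl, leaving out 1 library gave 3889 to 4495 higher and 4089 to 4757 lower responses. The numbers of the libraries do not pair them, and with the replicate block 5839 genes were higher and 5616 lower under ICRF, 2591 changed at least 2-fold, and 4913 had a higher and 4844 a lower response than in siControl cells.

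Among the genes named in the report, no call was lost under any alternative except that of KRT17. Some that did not pass changed sign, all within 0.1 of 0 except CRYAB. With upper quartile scaling BAX came to -0.0412, CDKN1A to -0.0152, GRHL2 to -0.0307, HSP90AA1 to -0.0242, HSP90AB1 to -0.00691, MDM2 to -0.00962, PCNA to -0.0459 and RAD21 to -0.0666. RAD21 was at -0.0171 with at least 1 CPM in 2 libraries. Leaving out 1 library, BAX ranged from -0.00146 to 0.0616, CRYAB from -0.388 to 0.593, PCNA from -0.0169 to 0.0674 and RAD21 from -0.021 to 0.0307. The PGR difference from siControl was 0.0634 without scaling factors. The median of genes of 10 to 50 kb turned to -0.0275 with upper quartile scaling, and that of 100 to 200 kb to 0.00416 with no filter. The medians of the immediate early, sodium transport, p53, glycolysis and STAT lists lie near 0 and changed sign with scaling. Fewer interferon genes were called with 12 libraries, 8 lower and 3 higher. The cause of these shifts was not tested. With 2 libraries a group and unknown culture origin, small called changes may not hold beyond these libraries.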

Other observations

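Other letters were also counted before gene starts. The CCAAT box of NF-Y occurred before 75% of the mitosis list with a window and 54.3% of the replication list, against 34.9% of all tested genes. It was not particular to these lists, with 70.4% of the cholesterol, 57.7% of the amino acid stress and 55.6% of the luminal list. The progestin target list had 38.7% and the heat shock list 31.6%. The E2F letters TTTNNCGC occurred before 34.8% of the replication list, 9.62% of the mitosis list and 8.54% of all tested genes. The C/EBP letters TTGCNNAA were found before 6.32% of genes higher by at least 2-fold, 7.48% of genes lower by at least 2-fold and 6.18% of all tested genes. These shares describe letters in a short window and were not tested.

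The chemokine gene CCL2 was nearly silent in the ICRF progestin libraries, with 28 and 29 fragments untreated and 0 and 2 with progestin, a ratio of 0.0347 with a 95% exact counting interval from 0.00411 to 0.131. It was singled out after its values were seen.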
